A study of Mus musculus with 4 samples.

Results

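The genes described here are 10 components of the basement membrane that extraembryonic endoderm of the early mouse embryo lays down in large amounts: the laminin chains Lama1, Lama5, Lamb1 and Lamc1, the collagen IV chains Col4a1 and Col4a2, the nidogens Nid1 and Nid2, and the matrix proteins Sparc and Hspg2. They were chosen by name, and every array probe outside the controls whose RefSeq transcript maps to one of them was taken. This gave 14 probes on 23 spots, out of 55681 probes and of 20257 genes named through RefSeq. Nid1 was measured by 3 probes, Sparc and Hspg2 by 2 each and the other 7 genes by 1, and the Col4a1 probe was spotted 10 times.

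The study asked how the leukaemia fusion protein Nup98-HoxA9 acts on gene expression in mouse embryonic stem (ES) cells. RNA of 4 lines was hybridised to one-colour Agilent arrays, 1 array per line: the parental line EB3, Nup98-HoxA9 ES clones #1 and #9, and a HoxA9-Ct ES clone. The Nup98-HoxA9 clones carry a FLAG-tagged fusion of the N-terminal part of human Nup98 with the C-terminal part of HoxA9, and HoxA9-Ct ES carries the HoxA9 part alone, each delivered by a Tol2 transposon under hygromycin selection. All lines, the parental one included, grow on gelatin-coated dishes with serum and leukaemia inhibitory factor. Each transgenic line is 1 picked clone, so a trait of the clone and an effect of its transgene cannot be told apart in any 1 line. The fusion has 2 clones, but both were selected and picked, and both are compared with 1 parental array and 1 HoxA9-Ct clone. Nothing says that the arrays stand for separate cultures, and all comparisons to parental ES share 1 parental array. The p-values and standard errors measure only the spread between the Nup98-HoxA9 clones. The main fit took this spread as 1 SD of 0.454 for all probes, not as a value of each gene.

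A basement membrane is a thin extracellular sheet built from a laminin network and a collagen IV network that nidogens and perlecan, the product of Hspg2, tie together. A laminin is a trimer of an alpha, a beta and a gamma chain, and the usual collagen IV molecule is a trimer of alpha 1 and alpha 2 chains made from Col4a1 and Col4a2. In the peri-implantation embryo, primitive endoderm and its parietal endoderm descendants secrete these proteins, parietal endoderm into the thick Reichert's membrane, and undifferentiated ES cells in culture also make laminins.

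Signals are given as log2 of the processed signal over the 75th percentile of the spots of the same array, so that 0 is the signal at that percentile, and ratios are differences of such values. The 75th percentile of the processed signal was between 209.1 and 253.0 on the 4 arrays, which share a slide and a scan, 49.9% to 53.0% of spots were well above background, and none was saturated. All 14 member probes were well above background on all 4 arrays, as were 25529 of the 55562 probes with a value on every array. The pluripotency list (12 genes, among them Pou5f1, Sox2 and Nanog) was well above background in full on every array, and limma called 0 of its genes in any of the 3 comparisons. Under other processing settings it called at most 1, in the clones against parental ES. Tbx3, Klf2 and Klf4, transcription factors of naive ES cells, shifted most in the clones, and the list's median ratio to parental ES was 0.14 and -0.08 for clones #1 and #9 and 0.03 for HoxA9-Ct ES.

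Both collagen IV genes were higher in both Nup98-HoxA9 clones than in parental ES and lower in HoxA9-Ct ES. Of the 10 members, 7 stayed within 0.5 of parental ES in all 3 transgenic lines. So did 8745 of the 12553 named genes well above background on all arrays, a similar share. The third gene outside that band was Lama1, the alpha chain of the early embryonic laminin, which was lower in HoxA9-Ct ES. The collagen IV signal in the clones was 2.57-fold to 3.39-fold that of parental ES. limma, fitted across all probes, called Col4a1 and Col4a2 between the Nup98-HoxA9 clones and HoxA9-Ct ES and called no member against parental ES.

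Col4a1 and Col4a2 lie head to head on chromosome 8, while the other members lie singly on chromosomes 17 (Lama1), 2 (Lama5), 12 (Lamb1), 1 (Lamc1), 13 (Nid1), 14 (Nid2), 11 (Sparc) and 4 (Hspg2). The collagen IV genes run in opposite directions from neighbouring starts, so the sequence around these starts is shown before their values. In the RefSeq promoter table of GRCm38.p6 the starts are 21 bases apart, Col4a2 on the plus strand and Col4a1 on the minus strand. The annotated gene spans overlap by 85 bases at chr8:11312805-11312889, so the Col4a1 span begins upstream of the Col4a1 start used here. All distances below are counted from the starts of the promoter table. Promoter windows of 300 bases (250 upstream and 50 downstream of a start) overlap by 78 bases at chr8:11312777-11312854. The lines below give the stretch from one start to the other with its GC box (GGGCGG) in capitals, at chr8:11312805-11312826, plus strand, and 30 bases around each CCAAT motif, in capitals, of both windows. That on the Col4a2 side is at chr8:11312761-11312790, plus strand. That on the Col4a1 side is at chr8:11312955-11312984, minus strand, where the motif reads as its reverse complement ATTGG.
between the starts: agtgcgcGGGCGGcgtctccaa
Col4a2 side: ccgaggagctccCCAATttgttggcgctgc
Col4a1 side: gtgcttgcccgggATTGGcgagccaagggg

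The CCAAT begins 32 bases upstream of the Col4a2 start and the ATTGG 145 bases upstream of the Col4a1 start. RefSeq windows were found for 7 of the 10 members, out of 32544 windows in all. CCAAT on either strand was in 37.4% of all windows and in those of Col4a1, Col4a2, Lamb1 and Nid1 (1 match each). GGGCGG on either strand was in 35.9% of all windows, and the Col4a1 window held 1 match and the Col4a2 window 3. The windows of Lama5 (4 matches), Lamb1 (2), Nid1 (1) and Hspg2 (5) held it too, and that of Sparc did not. TATAAA was in 13.6% of windows and in none of the 7 member windows, counted on either strand. The same held for TTTAT, the A-T rich core of a posterior Hox site, present in 39.9% of windows. The windows of Col4a1 and Col4a2 had a GC content of 74.0% and 73.7%, against a median of 53.0% over all windows. These matches describe the letters of the windows alone.

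**Figure D1:**
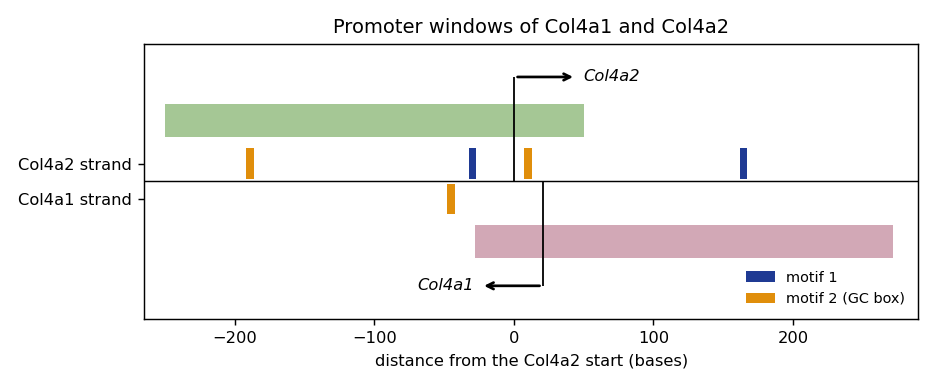
Promoter windows of Col4a2 (green) and Col4a1 (pink) by distance in bases from the Col4a2 start, with arrows for the direction of transcription. Blue bars mark motif 1 (CCAAT) and orange bars motif 2 (GGGCGG), above the line where the motif reads on the Col4a2 strand and below it on the Col4a1 strand. The starts are 21 bases apart and the windows share 78 bases.

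Col4a1, the alpha 1 chain of collagen IV, had a log2 signal of -0.17 for parental ES, 1.29 and 1.49 for clones #1 and #9 and -0.75 for HoxA9-Ct ES (processed signals of 204.5, 544.2, 709.7 and 125.4). Both clones lay above parental ES and HoxA9-Ct ES lay below it. Clone #1 had a ratio to parental ES of 1.45 (2.74-fold) and clone #9 one of 1.65 (3.15-fold). The ratio of HoxA9-Ct ES was -0.58, with parental ES 1.5-fold higher.

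The 10 spots of the Col4a1 probe show how far 1 array measures this order, since they are repeats of the same hybridisation and not of the line. They ran from -0.33 to -0.07 for parental ES, from 1.07 to 1.5 and from 1.40 to 1.55 for clones #1 and #9, and from -1.02 to -0.27 for HoxA9-Ct ES. Every spot of both clones was brighter than every parental spot, the clones overlapped each other, and the brightest HoxA9-Ct spot lay inside the parental range. Spot by spot, the median ratio to parental ES was 1.46 for clone #1 (1.27 to 1.59), 1.68 for clone #9 (1.55 to 1.74) and -0.64 for the HoxA9-Ct line (-0.69 to -0.17).

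Col4a2, the alpha 2 chain, was measured by 1 spot per array, with a log2 signal of -0.44 for parental ES, 0.92 and 1.32 for clones #1 and #9 and -1.24 for HoxA9-Ct ES. The order of the 4 lines was that of Col4a1. Clone #1 had a ratio of 1.36 (2.57-fold) and clone #9 one of 1.76 (3.39-fold), while that of HoxA9-Ct ES was -0.80, with parental ES 1.74-fold higher. The ratios of Col4a2 and Col4a1 differed by -0.09 and 0.11 for clones #1 and #9 and -0.22 for HoxA9-Ct ES. The clones themselves were 0.20 apart in Col4a1 and 0.40 apart in Col4a2, less than the distance of either clone from parental ES.

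**Figure D2:**
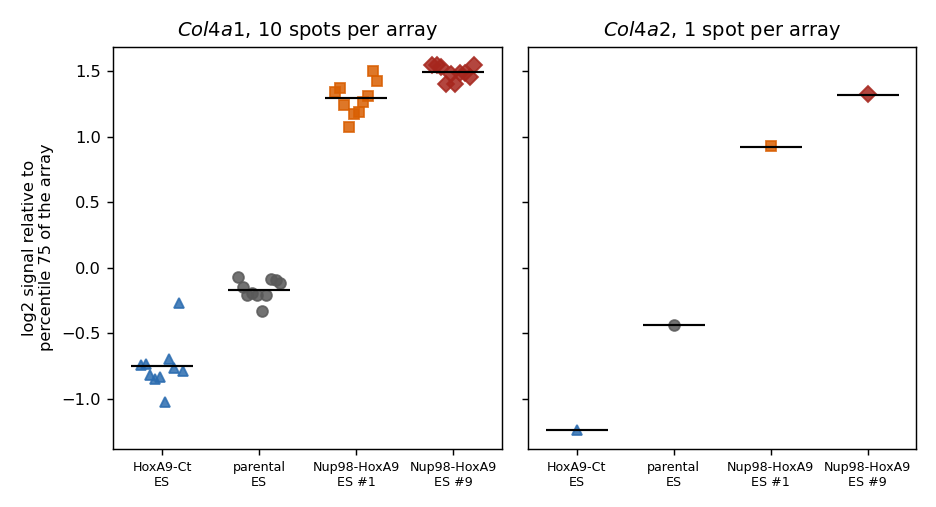
Log2 signal of each spot of Col4a1 (left, 10 spots per array) and Col4a2 (right, 1 spot per array) relative to the 75th percentile of the array, by line; black bars are the probe values. The clones sit at 0.92 or above, parental ES at -0.17 and -0.44, and HoxA9-Ct ES at -0.75 and -1.24.

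Against parental ES, the mean of the clones was higher by 1.55 for Col4a1 (SE 0.56, 2.94-fold) and by 1.56 for Col4a2 (SE 0.56, 2.95-fold). The unadjusted p-values of limma's fit were 0.00521 and 0.00504, and the Benjamini-Hochberg adjusted p over all 55562 probes was 0.204 and 0.200, so neither passed at 0.05. limma called 0 of the 10 members higher and 0 lower in this comparison, where 0.781% and 0.625% of all probes were called, and 2 members, the collagen IV genes, had an unadjusted p under 0.05. By fold alone, 2 of the 10 members were more than 2-fold higher than parental ES in both clones, against 1.10% of probes well above background on all arrays, and 0 were more than 2-fold lower in both, against 0.776%. With normexp background correction, with a floor under dim signals, or with eBayes' trend and robust options on, limma did call both genes. The adjusted p ranged from 3.72e-06 to 0.477 for Col4a1 and from 6.53e-06 to 0.546 for Col4a2 over 11 alternatives.

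Between the Nup98-HoxA9 clones and HoxA9-Ct ES the difference was larger. The mean of the clones was 2.14 above HoxA9-Ct ES for Col4a1 (SE 0.56, 4.40-fold, limma adjusted p = 0.0133) and 2.36 for Col4a2 (SE 0.56, 5.13-fold, limma adjusted p = 0.00332). These were the 2 members called higher, against 0.673% of all probes, and 0 members were called lower, against 0.688%. Clone #1 exceeded HoxA9-Ct ES by 2.04 in Col4a1 and 2.16 in Col4a2, and clone #9 by 2.24 and 2.56. The calls of both genes were lost with quantile normalization (adjusted p = 0.352 for Col4a1 and 0.400 for Col4a2) and when the fit was limited to probes above background on any array (0.360 and 0.404) or on all 4 (0.134 and 0.156), and the adjusted p over all 11 alternatives ran from 6.19e-11 to 0.360 for Col4a1 and from 1.63e-12 to 0.404 for Col4a2. The differences stayed at 2.14 and 2.36 under both filters, while the prior degrees of freedom of the fit went from infinite, with 1 SD of 0.454 for all probes, to 2.18 (SD 0.21) and 4.18 (SD 0.198).

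HoxA9-Ct ES alone was set against parental ES with 1 array on each side, so the spread was borrowed from the clones. limma called 0 members higher and 0 lower, beside 0.216% and 0.189% of all probes, and 0 members had an unadjusted p under 0.05. By fold, 0 members were more than 2-fold higher in HoxA9-Ct ES, against 0.846% of probes well above background, and 1 was more than 2-fold lower, against 0.333%. That gene was Lama1. For the collagen IV genes, the deficit of HoxA9-Ct ES (-0.58 and -0.80) was about as large as its standard error (0.64).

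Lama1 encodes the alpha 1 chain of laminin-111, the first laminin of the embryo. Its log2 signal was 5.07 for parental ES, 5.25 and 5.13 for clones #1 and #9 and 4.01 for HoxA9-Ct ES. The first 3 lines lay within 0.18 of each other and HoxA9-Ct ES stood apart below them. The ratio to parental ES was 0.18, 0.06 and -1.06, and the last is a signal 2.09-fold below parental ES (SE 0.64, unadjusted p = 0.0978 and adjusted p = 1.00 by limma). Against the mean of the clones HoxA9-Ct ES was 2.27-fold lower, with an unadjusted p of 0.0331 and an adjusted p of 0.616. limma called this deficit of Lama1 against parental ES with normexp (adjusted p = 0.0310) and with trend and robust on (0.0192), the lowest of a range that reached 1.00. Under the same 2 alternatives it called Lama1 between the clones and HoxA9-Ct ES (9.74e-06 and 2.11e-05), where the range reached 0.812.

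**Figure D3:**
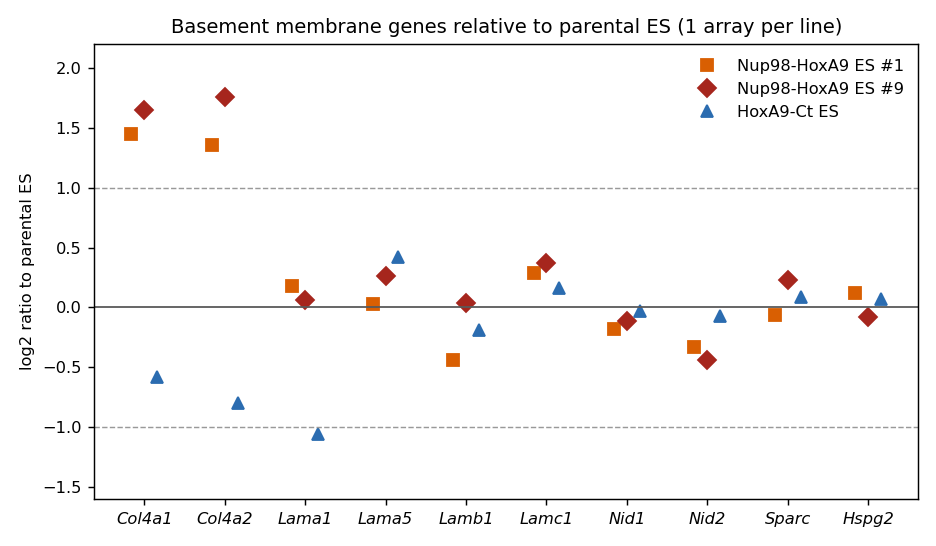
Log2 ratio of each member to parental ES in Nup98-HoxA9 ES clones #1 and #9 and in HoxA9-Ct ES, each gene at its probe with the highest mean signal, 1 array per line; dashed lines mark 2-fold. Col4a1 and Col4a2 are above 1 in both clones and below 0 in HoxA9-Ct ES, Lama1 is at -1.06 in HoxA9-Ct ES, and the other 7 genes lie within 0.5 of 0.

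The partner chains of Lama1 lay closer to parental ES in HoxA9-Ct ES. Lamb1, the beta 1 chain, had a log2 signal of 4.37 for parental ES, 3.93 and 4.41 for clones #1 and #9 and 4.19 for HoxA9-Ct ES. Clone #1 was the lowest line. Its ratio to parental ES was -0.44 and that of clone #9 was 0.04, on the other side of the parental value. Lamc1, the gamma 1 chain shared by most laminins, had signals of 4.92, 5.21, 5.30 and 5.08 in the same order. All 3 transgenic lines were above parental ES, by 0.29, 0.37 and 0.16, all smaller than the standard errors of limma's fit (0.56 for the clones and 0.64 for HoxA9-Ct ES).

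Lama5, the alpha chain of the laminin that supports ES cell self-renewal in culture, had signals of 4.63 for parental ES, 4.66 and 4.89 for clones #1 and #9 and 5.06 for HoxA9-Ct ES. HoxA9-Ct ES was the highest line for Lama5 and the lowest for Lama1. The ratios of Lama5 to parental ES were 0.03, 0.26 and 0.42, with an adjusted p of 1.00 in each comparison by limma.

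Nid1, nidogen 1, which bridges laminin and collagen IV, had signals of 3.69 for parental ES, 3.51 and 3.58 for clones #1 and #9 and 3.66 for HoxA9-Ct ES at its brightest probe. Its other probes were much dimmer, from -2.51 to -1.83 and from -2.26 to -2.06 over the 4 arrays. At each of the 3 probes both clones were below parental ES, with ratios down to -0.47, while HoxA9-Ct ES had a ratio of -0.03 at the brightest probe and lay above parental ES at the dim ones. Nid2, nidogen 2, had signals of 3.85, 3.52, 3.41 and 3.78. All 3 transgenic lines lay below parental ES, with ratios of -0.33, -0.44 and -0.07, and the mean of the clones was 1.30-fold below parental ES (adjusted p = 1.00 by limma).

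Sparc, a calcium-binding matrix protein that binds collagen IV and is abundant in parietal endoderm, had signals of 7.12 for parental ES, 7.06 and 7.36 for clones #1 and #9 and 7.21 for HoxA9-Ct ES. The lines covered a range of 0.29, with clone #9 highest. Its dimmer probe gave -0.50, -0.33, -0.21 and -0.38, with clone #9 again highest but clone #1 above rather than below parental ES. Hspg2, the heparan sulfate proteoglycan perlecan, had signals of 3.67, 3.79, 3.59 and 3.75 at its brighter probe. The lines lay within 0.20, and at the dimmer probe within 0.09.

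Over the 10 members the median ratio to parental ES was 0.07 and 0.15 for clones #1 and #9 and -0.05 for HoxA9-Ct ES. Over all probes well above background on all arrays it was -0.03, -0.12 and 0.00. The medians describe the list and are little affected by the 3 genes outside the band of 0.5. The summed signal of the members, in units of the 75th percentile of the array, was 290.7 for parental ES, 290.5 and 329.2 for clones #1 and #9 and 290.5 for HoxA9-Ct ES. Sparc, the brightest member, made up the largest part of it, and the collagen IV genes, the dimmest, the smallest.

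The gene whose pattern over the lines was most like that of Col4a2, the member with the widest range, was Dpp4, a cell surface peptidase, at a Euclidean distance of 0.11 over the 3 ratios to parental ES. It was followed among the 12456 named genes outside the lists by Vldlr, a lipoprotein receptor (0.44), Dcstamp (0.44), Zfp951 (0.45) and 2610528A11Rik (0.46). Dpp4 had ratios of 1.30, 1.75 and -0.71. Col4a1 lay at a distance of 0.26, which would place it at rank 2 among these genes, with Dpp4 alone closer. The next member was Lamc1 at 2.0, with 1863 other genes closer. The distances rest on 4 arrays and share the parental one.

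**Figure D4:**
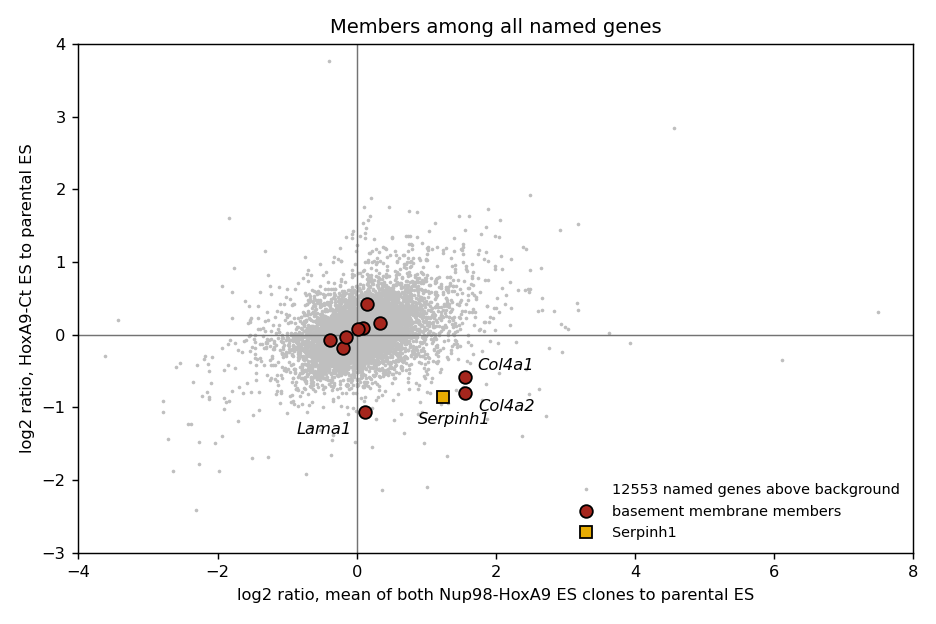
Log2 ratio to parental ES of the mean of both Nup98-HoxA9 clones (x axis) and of HoxA9-Ct ES (y axis) for 12553 named genes well above background on all arrays (grey), the 10 members (red) and Serpinh1 (yellow). Col4a1, Col4a2 and Serpinh1 lie at the lower right, at 1.55, 1.56 and 1.24 on the x axis, Lama1 lies below the centre at -1.06 on the y axis, and the other members lie near the origin.

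Collagen IV is folded and modified in the secretory pathway by prolyl and lysyl hydroxylases and the chaperone Hsp47, the product of Serpinh1, and is cross-linked outside the cell. Of 17 genes on a list of such factors, 15 were well above background on all arrays. limma called 1 of the 17, Serpinh1, higher in the clones than in HoxA9-Ct ES, and 0 in either comparison to parental ES. Over the alternatives the count ran from 0 to 2 between the clones and HoxA9-Ct ES and from 0 to 4 between the clones and parental ES. It stayed at 0 between HoxA9-Ct ES and parental ES. Serpinh1 had signals of 1.63 for parental ES, 2.68 and 3.06 for clones #1 and #9 and 0.77 for HoxA9-Ct ES. The order of the lines was that of both collagen IV genes, with ratios to parental ES of 1.05, 1.43 and -0.85, and the clones exceeded HoxA9-Ct ES by 2.09 (limma adjusted p = 0.0171, and 1.82e-15 to 0.440 over the alternatives). More than 2-fold higher than parental ES in both clones were Serpinh1 and Tgm2 (named after its values were seen), a cross-linking transglutaminase with ratios of 1.21, 1.27 and 0.59. The median ratio of the 15 genes well above background was 0.10 and 0.22 for clones #1 and #9 and 0.01 for HoxA9-Ct ES.

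Of 28 other basement membrane genes, 13 were well above background on all arrays. Their median ratios to parental ES were 0.00, 0.10 and 0.03 for clones #1 and #9 and HoxA9-Ct ES. Of these 13, 1 was more than 2-fold higher than parental ES in both clones. It was Tinagl1 (named after its values were seen), with ratios of 1.35, 2.40 and 0.39. limma called 1 of the 28, Lama4, the alpha chain of vascular laminins, higher in the clones than in HoxA9-Ct ES. Lama4 was well above background in the clones alone. The clones were at least 1.57-fold above HoxA9-Ct ES, a lower bound set by the lowest signal called well above background. The call by limma used the measured dim signal of HoxA9-Ct ES and does not apply to this bound. Of the other collagen IV chains, Col4a3, Col4a4 and Col4a5 were well above background on no array, and Col4a6 had ratios of -0.31, -0.46 and -0.22.

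Among 17 receptors that bind basement membranes, 14 were well above background on all arrays and limma called 0 in the 3 comparisons. Over the alternatives it called from 0 to 1 in each comparison. Of those 14, the 3 with the largest mean shift in the clones were Itga5, the fibronectin receptor chain, with ratios of 0.57, 1.22 and 0.02, Ddr1, a collagen receptor kinase, with -0.91, -0.68 and 0.24, and Itgb4, the hemidesmosome integrin chain, with 0.55, 0.83 and 0.39. Of 11 matrix proteases and inhibitors, 7 were well above background on all arrays, and limma called 1, Mmp9, a gelatinase that cuts collagen IV, higher in the clones than in parental ES (adjusted p = 0.0283). Mmp9 was well above background in clone #9 alone.

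Primitive endoderm is the first tissue of the embryo to make much collagen IV, and the summed signal of its markers had the same order of lines. Of 9 primitive endoderm markers, limma called 4 higher in the clones than in parental ES and 7 higher than in HoxA9-Ct ES, and 1 (Sox17) was called lower in the HoxA9-Ct line than in the parental one. Over the alternatives these counts ran from 0 to 8, from 0 to 7 and from 0 to 2. Their summed signal, in units of the 75th percentile, was 1.36 for parental ES, 4.35 and 6.48 for clones #1 and #9 and 0.761 for HoxA9-Ct ES. Gata6, a master regulator of primitive endoderm, had signals of -2.00 for parental ES, 0.24 and 0.53 for clones #1 and #9 and -3.38 for HoxA9-Ct ES. Gata4, its partner, had -2.50, -0.72, -0.53 and -3.67. Sox17, Foxa2, Pdgfra, Dab2 and Hnf4a were the others called between the clones and HoxA9-Ct ES. In HoxA9-Ct ES, Sox17, Foxa2 and Dab2 were not well above background, and Pdgfra was well above background in the clones alone. The clones were at least 10.9-fold (Sox17), 6.36-fold (Foxa2), 10.5-fold (Dab2) and 7.36-fold (Pdgfra) above HoxA9-Ct ES. The calls of these genes by limma used the measured dim signals of HoxA9-Ct ES and do not apply to these bounds. In bulk RNA, fewer cells of a type and less RNA per cell cannot be told apart, and the part of these markers in the collagen IV result was not tested.

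**Figure D5:**
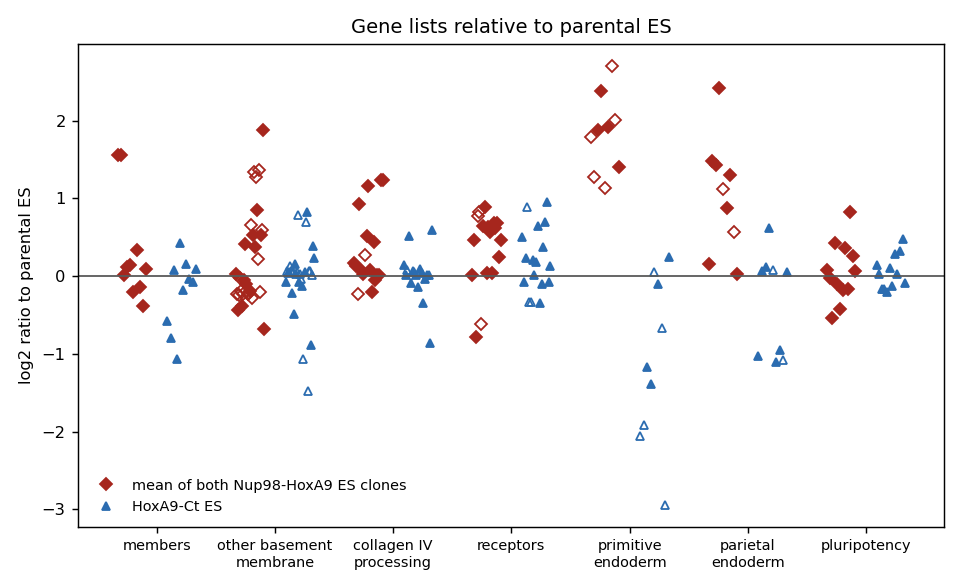
Log2 ratio to parental ES of each gene of 7 lists, for the mean of both Nup98-HoxA9 clones (red diamonds) and for HoxA9-Ct ES (blue triangles); filled symbols are genes well above background on all 4 arrays and open symbols the others. All 9 primitive endoderm markers are above 0 in the clones, while most members, receptors and pluripotency genes lie between -1 and 1.

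Parietal endoderm, which makes the most basement membrane, had 7 of 9 markers well above background on all arrays. limma called Krt8, an epithelial keratin, higher in the clones than in parental ES (ratios of 1.94 and 2.90, adjusted p = 0.00210), and Srgn and Pth1r higher in the clones than in HoxA9-Ct ES. The ratio of Krt8 in HoxA9-Ct ES was 0.62. Srgn and Pth1r had the order of lines of collagen IV, which Krt8 did not. Of the other markers well above background on all arrays, Krt18 and Krt19 were lowest in parental ES, Vim in clone #9 and Fst in HoxA9-Ct ES. The summed signal of the list was 38.2 for parental ES, 49.95 and 62.4 for clones #1 and #9 and 39.3 for HoxA9-Ct ES, most of it Vim and Krt18, while Thbd was well above background on no array and Plat in clone #9 alone. limma called 0 of 9 visceral endoderm markers in the main fit, though some alternatives did call visceral markers. Their summed signal was 72.9, 65.3, 49.5 and 96.8. Most of that sum was Apoe, an apolipoprotein, with log2 signals of 6.14, 5.96, 5.46 and 6.56, lowest in clone #9 and highest in HoxA9-Ct ES. The median ratio to parental ES of the 5 visceral markers well above background on all arrays was 0.28 and 0.99 for clones #1 and #9 and -0.43 for HoxA9-Ct ES. Among these 5, Amn, Rbp4 and Cubn shifted most in the clones. Amn had ratios of 0.75, 1.64 and -0.51 and Cubn 0.28, 0.99 and -1.09, while Rbp4 had 0.55, 1.48 and 1.03. Amn and Cubn, the chains of an endocytic receptor, thus had the order of lines of collagen IV, which Rbp4 and Apoe did not.

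Fibroblast and endothelial markers, of other cells that make collagen IV, gave no call in the main fit. Some alternatives did call fibroblast markers, and none called an endothelial one. limma called 0 of 11 fibroblast markers, of which 3 were well above background on all arrays, and their summed signal was 8.05 for parental ES, 9.69 and 18.3 for clones #1 and #9 and 11.1 for HoxA9-Ct ES, most of it Thy1. The 3 measured on all arrays were Pdgfrb, Col1a1 and Thy1. Larger mean ratios of the clones were seen in 2 genes not well above background in parental ES or HoxA9-Ct ES, named after their values were seen. Col1a2, a chain of collagen I, had signals of -4.26 for parental ES, -3.47 and -1.56 for clones #1 and #9 and -4.34 for HoxA9-Ct ES, and was well above background in both clones. Fbn1, fibrillin 1, had -5.27, -4.93, -2.42 and -4.30, and was well above background in clone #9 alone. Their adjusted p against parental ES was 0.0944 and 0.176 by limma. limma called 0 of 7 endothelial markers, with sums of 11.4, 12.3, 10.2 and 13.3, most of it Kdr. Pecam1, Eng and Kdr were the 3 of them well above background on all arrays. Of 8 trophoblast markers limma called 2 higher in the clones than in parental ES and 3 higher than in HoxA9-Ct ES. These were 4 genes in all (Cdx2, Elf5, Hand1 and Krt7). Cdx2 was well above background in the clones alone, Elf5 in clone #1 alone and Hand1 in clone #9 alone. Krt7 reached that level in every line except HoxA9-Ct ES. The clones were at least 1.83-fold above parental ES for Cdx2 and at least 3.92-fold above HoxA9-Ct ES for Krt7. The calls of these genes by limma used the measured dim signals and do not apply to these bounds. The summed signal of the list was 102 for parental ES, 92.8 and 86.6 for clones #1 and #9 and 81.1 for HoxA9-Ct ES. Most of that sum was Gcm1, which limma did not call and whose log2 signals were 6.51, 6.33, 6.20 and 6.17. The part of these lists in the collagen IV result was not tested.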

How the data were processed

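RNA of 4 mouse ES cell lines was labelled with Cy3 and hybridised to SurePrint G3 Mouse GE 8x60K arrays, 1 array per line. Per the submitters' processing notes, images were read with Agilent Feature Extraction 10.10.1.1. The files deposited by the authors give each spot a processed intensity, free of background and spatial trend and not scaled between arrays. The series matrix deposited by the authors holds the same intensity values times 1 constant per array.

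Without control spots, each array's processed signals were divided by the 75th percentile of its 59305 spots and put on the log2 scale, and spots of a probe were averaged without outlier spots (143 to 201 per array). The median SD between repeat spots was 0.105 to 0.118 (399 probes spotted 10 times), and the number of arrays limits the precision. Symbols came from RefSeq accessions (GRCm38.p6 table), which named 26762 probes. A gene stands at its probe with the highest mean signal. A bound was set against the lowest signal well above background (log2 of -4.62 to -4.23) or the probe's own signal, whichever was higher.

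limma 3.58.1 in R 4.3.3 (lmFit, eBayes, Benjamini-Hochberg adjusted p of 0.05) had 3 groups and 1 residual degree of freedom, and was tested on simulated data. The lines with 1 array take their spread from the clones. Other steps used Python 3.11.15, numpy 2.4.6 and pandas 2.3.3.

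The members and the 11 other lists (other basement membrane, collagen IV processing, receptors, proteases and inhibitors, and markers of primitive, parietal and visceral endoderm, fibroblasts, endothelium, trophoblast and pluripotency) were chosen with earlier results of these data known. Named are all members, the list genes that limma called in any comparison (or up to 3 with the largest mean shift in the clones, of those well above background on all arrays, where none was called) and the 5 genes most like the member with the widest range. Alternatives were normexp background correction (offset 50, on the median spot signal, since the mean spot signal was not used here), quantile normalization, the median of each array, the series matrix, a floor, filters on dim probes, averaging all probes of a gene, outlier spots kept, trend and robust on, other folds and leaving out each clone. Leaving out the last eighth of spot rows, every alternative for the ratios to HoxA9-Ct ES and for the other lists, and the filters and eBayes settings for single genes were chosen after seeing the data.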

Additional observations from a re-analysis of the deposited data

Results flagged for a closer look

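The ratio of collagen IV to parental ES differed between Nup98-HoxA9 ES and HoxA9-Ct ES by limma's test of the difference itself. For Col4a1 the ratio to parental ES was 1.55 in the mean of the clones and -0.58 in HoxA9-Ct ES, a difference of 2.14 (adjusted p = 0.0133). For Col4a2 the ratios were 1.56 and -0.80, a difference of 2.36 (adjusted p = 0.00332). The parental array cancels in both differences. Over 11 alternatives the difference ran from 1.70 to 2.18 for Col4a1 and from 1.80 to 2.40 for Col4a2, with an adjusted p under 0.05 in 8 of the 11 for each gene. No group held 4 arrays, so single arrays were not screened for outlying values.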

How the results depend on the processing

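No paired analysis was possible because each line has 1 array, and the numbers 1 and 9 name clones and match no array of another group. Between Nup98-HoxA9 ES and parental ES the count of members called went from 0 to 2 with normexp, with the floor and with trend and robust on. Between HoxA9-Ct ES and parental ES it went from 0 to 1 (Lama1) with normexp and with trend and robust on. Between Nup98-HoxA9 ES and HoxA9-Ct ES it went from 2 to 0 with quantile normalization and with either filter on dim probes, and to 3 (with Lama1) with normexp and with trend and robust on. The count more than 2-fold higher in both clones went from 2 to 0 at 3-fold, while it was 2 to 2 when either clone was left out, and the count more than 2-fold lower was 0 to 0. The median ratio of the members to parental ES for the mean of the clones (0.10) was 0.17 with quantile normalization and 0.07 to 0.15 with either clone left out. For HoxA9-Ct ES (-0.05) it was -0.13 with normexp, -0.12 with median scaling and 0.01 with probes of a gene averaged. The cause was not tested.

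Taken singly, the clones differed in sign for Lamb1, Sparc and Hspg2. Against parental ES, clones #1 and #9 had ratios of -0.44 and 0.04 for Lamb1 and -0.06 and 0.23 for Sparc. Those for Hspg2 were 0.12 and -0.08. Against HoxA9-Ct ES the ratios were -0.26 and 0.23 for Lamb1, -0.15 and 0.14 for Sparc, and 0.04 and -0.15 for Hspg2. With both clones kept, signs changed only for ratios near 0. Hspg2 in the clones against parental ES (0.02) was -0.05 with normexp and -0.01 with median scaling, and Nid1 in HoxA9-Ct ES against parental ES (-0.03) was 0.11 with the mean over its probes. Between Nup98-HoxA9 ES and HoxA9-Ct ES, Lamb1 (-0.01) was 0.08 with quantile normalization and 0.03 with median scaling, Nid1 (-0.11) was 0.00 with normexp, Hspg2 (-0.06) was 0.00 with quantile normalization, and Sparc (0.00) was 0.05 with normexp, 0.09 with quantile normalization, 0.04 with median scaling and 0.05 with the mean over its probes. Col4a1, Col4a2 and Lama1 kept their direction in all 3 comparisons under every alternative. Scaling by the median of each array moved the median ratio of all probes well above background by less than 0.1 in each line. The brightest Sparc probe is among the last eighth of spot rows, so Sparc has no value without those spots.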
